A study of Mus musculus with 2 samples.

Results

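The genes described here encode the phase II conjugation enzymes of mouse liver, which attach glucuronic acid, sulfate or glutathione to drugs, hormones and other lipophilic molecules. They were chosen by name, as every gene whose single symbol in the platform annotation starts with Ugt1, Ugt2 or Ugt3, with Sult and a digit, or with Gsta, Gstm, Gstp, Gstt, Gsto, Gstk or Mgst and a digit. The rule gave 45 of 18193 named genes, read by 58 of 34945 named probe sets (groups of short probes that together read a transcript). Of these, 10 belong to glucuronidation, 13 to sulfation and 22 to glutathione conjugation. No gene of the Ugt1 locus entered, because the 3 probe sets annotated to it carry several symbols each, as do 2 other probe sets of these families.

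Livers came from C57BL/6J mice aged 2 months. The pool labelled Ad-PDK4 combined 3 livers of mice given an adenovirus that overexpresses PDK4 (pyruvate dehydrogenase kinase 4, a mitochondrial kinase that inactivates the pyruvate dehydrogenase complex), and the pool labelled Ad-control combined 4 livers of mice given the empty adenovirus vector. Every mouse, control or not, thus received adenovirus, at a dose of 1000000000 plaque-forming units by the tail vein, and liver was taken 3 days later. Each pool was hybridised to 1 array, so n = 1 per group, no test was possible, and every value describes these pools.

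Conjugation makes a molecule more soluble in water, so that it can leave the hepatocyte through bile or blood. UDP-glucuronosyltransferases (UGT) sit in the endoplasmic reticulum and use UDP-glucuronic acid, sulfotransferases (SULT) are cytosolic and use an activated sulfate, and glutathione S-transferases (GST) join glutathione to electrophiles. Many of these genes are known to respond to xenobiotic sensors such as CAR, PXR and the aryl hydrocarbon receptor, and several GST genes to the oxidative stress factor NRF2.

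All differences are on the log2 scale, the pool labelled Ad-PDK4 minus the pool labelled Ad-control, relative to the median probe set, and a gene is represented by its brightest probe set. Signals under a floor of 99.9 (Ad-PDK4) and 93.4 (Ad-control), the median non-control probe set of each array, were treated as not measured. With no replicates, the only error scale was how far several probe sets of a gene differ, a pooled SD of 0.35 over 4326 genes. Genes were also sorted into 5 equal bins of brightness, and in the brightest bin that SD was 0.18 over 561 genes. Over the 8 conjugation genes with several measured probe sets the SD was larger, 0.40. It leaves out the variation between mice and the error of a pool or array. The targeted gene, Pdk4, gave a signal of 177.0 on the Ad-PDK4 array and 234 on the Ad-control array, a difference of -0.39, so the arrays do not show its overexpression; whether its only probe set reads the vector's transcript was not tested. The labels are therefore taken as given for each direction below. Of 8 matched hepatocyte markers, 8 were measured and 8 lay within 1.5-fold, with summed signals of 440820 and 462201 on the Ad-PDK4 and Ad-control arrays. All 10 matched markers of pancreatic acinar cells were at least 1.5-fold higher in the pool labelled Ad-PDK4, with a median difference of 3.11 and summed signals of 84419 (Ad-PDK4) and 10618 (Ad-control). The same held for 7 of 7 matched markers of proliferating cells, whose summed signals were 16975 (Ad-PDK4) and 1426 (Ad-control). Of these, Aurkb had only a bound, being under the floor on the Ad-control array. Past 1.5-fold were 9.21% (higher) and 5.2% (lower) of all genes measured on both arrays. Lower by at least 1.5-fold were 3 of 3 muscle markers (-1.01 to -0.86; summed signals 1337 in Ad-PDK4 and 2506 in Ad-control) and 2 of 6 measured Kupffer cell markers, Clec4f (-1.13) and Vsig4 (-1.19). The other Kupffer cell markers measured on both arrays, Cd5l (0.10), Adgre1 (0.21) and Cd68 (0.37), lay above 0, and Marco (-0.49) had only a bound. In a tissue extract, fewer cells of a type and less RNA per cell cannot be told apart. The part of all these markers in the differences below was not tested.

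Most conjugation genes differed little between the pools. Of the 45, 36 were measured on both arrays, 9 were under the floor on both and none (0) was measured on 1 array alone. Within 1.5-fold were 30 of the 36. At least 1.5-fold higher in the pool labelled Ad-PDK4 were 4 genes (11.1%), Gstp3, Sult1c2, Ugt2b37 and Mgst2, against 9.21% of the 10389 named genes measured on both arrays. At least 1.5-fold lower were 2 genes (5.56%), Gsta2 and Gsto1, against 5.2% of all genes, and past 1.5-fold either way were 14.4% of all genes. Both member shares were close to the background, so the counts say nothing particular about conjugation genes. The plot of signals by gene shows all 45 genes, with 7 of the 9 unmeasured ones among the sulfotransferases.

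**Figure D1:**
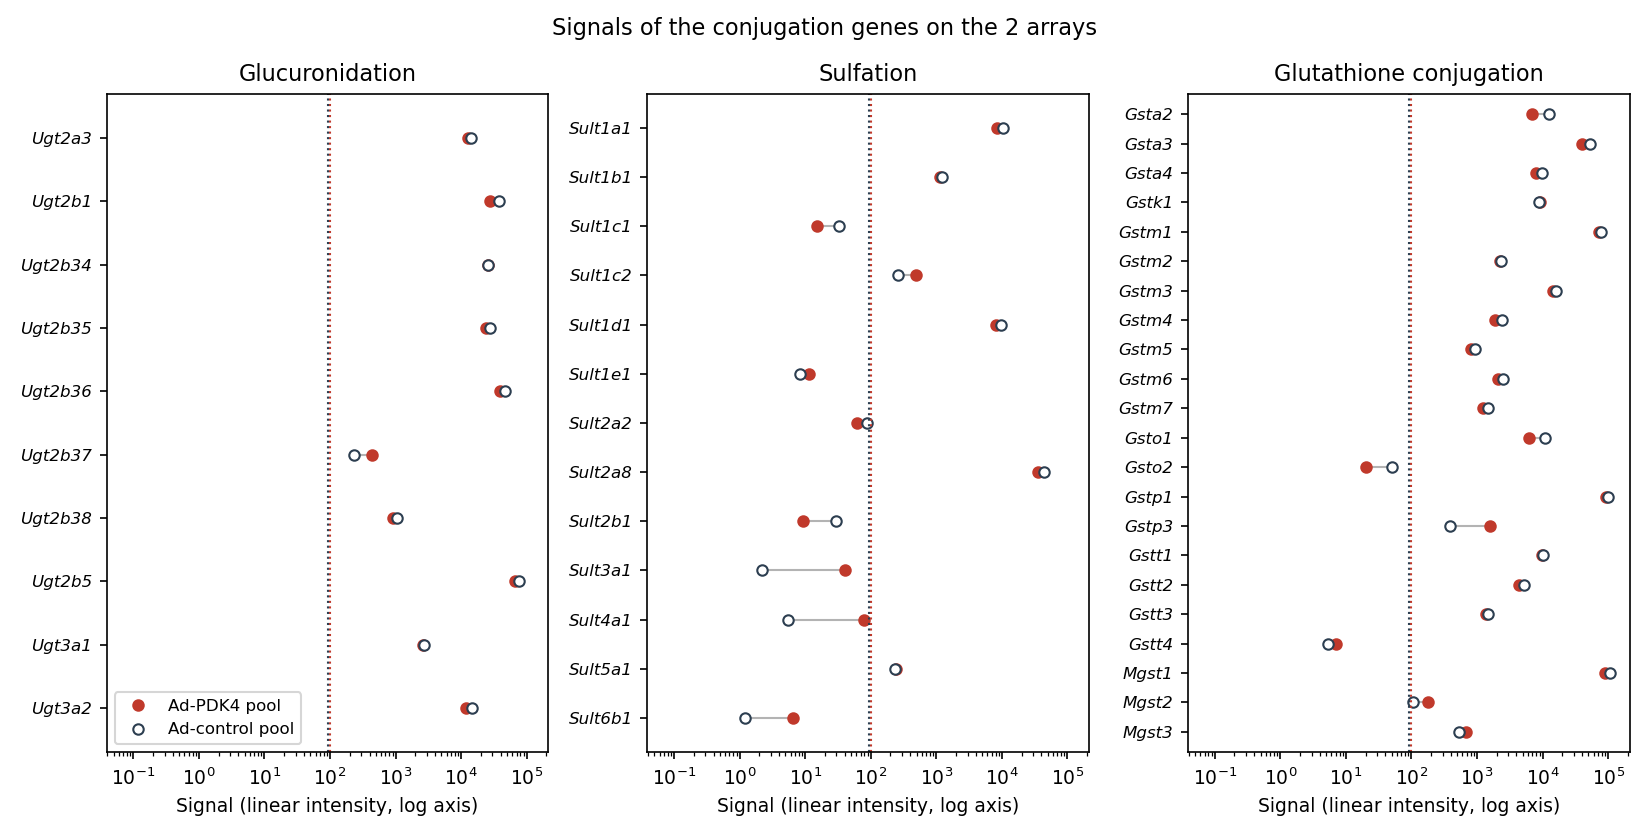
Signal of each conjugation gene (linear intensity on a log axis) in the pool labelled Ad-PDK4 (filled) and the pool labelled Ad-control (open), by class, 1 array each; dotted lines mark the floors of 99.9 and 93.4. Most pairs of points nearly coincide, and Gstp3 shows the widest gap among the genes above the floor.

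The median difference was -0.20 over 10 measured UGT genes, -0.13 over 6 sulfotransferases and -0.12 over 20 glutathione transferases. Over all 10389 genes it was 0.015. No test of the difference between classes was possible, and no error of these medians could be had from 1 array per group. Below 0 were 8 of 10, 4 of 6 and 16 of 20 members, 28 of 36 in all (77.8%), against 48.4% of all genes. With the poly-A spike-in reference described next 2 of 36 were below 0, but that reference raises all genes alike. The 24 poly-A spike-in control probe sets themselves had a median difference of -0.54. Centred on them, the medians of glucuronidation, sulfation and glutathione conjugation became 0.34, 0.41 and 0.42. Centred on the 18 hybridization control probe sets they became 0.056, 0.13 and 0.13. The median over all genes became 0.56 and 0.27 with these references, so the class medians stayed below it.

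Brightness was unevenly shared. Of the 36 measured members, 24 fell in the brightest bin (mean signal from 2259), where differences leaned below 0 on these arrays: 59.8% of its 2078 genes were below 0, with a median of -0.058. Among the members in that bin, 22 of 24 (91.7%) were below 0 relative to the median probe set, with a median of -0.21. With the poly-A reference only 2 of all 36 members were below 0, where the median over all genes was 0.56. In the brightest bin 0 members were at least 1.5-fold higher and 2 were lower, against 2.89% and 2.84% of its genes. The other 12 members split 6 to 6 around 0 and held all 4 of the higher genes. When the trend with brightness was removed by a loess curve, the median over the 36 members moved to -0.073, with 25 of 36 below 0, while the median over all genes was 0.022.

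**Figure D2:**
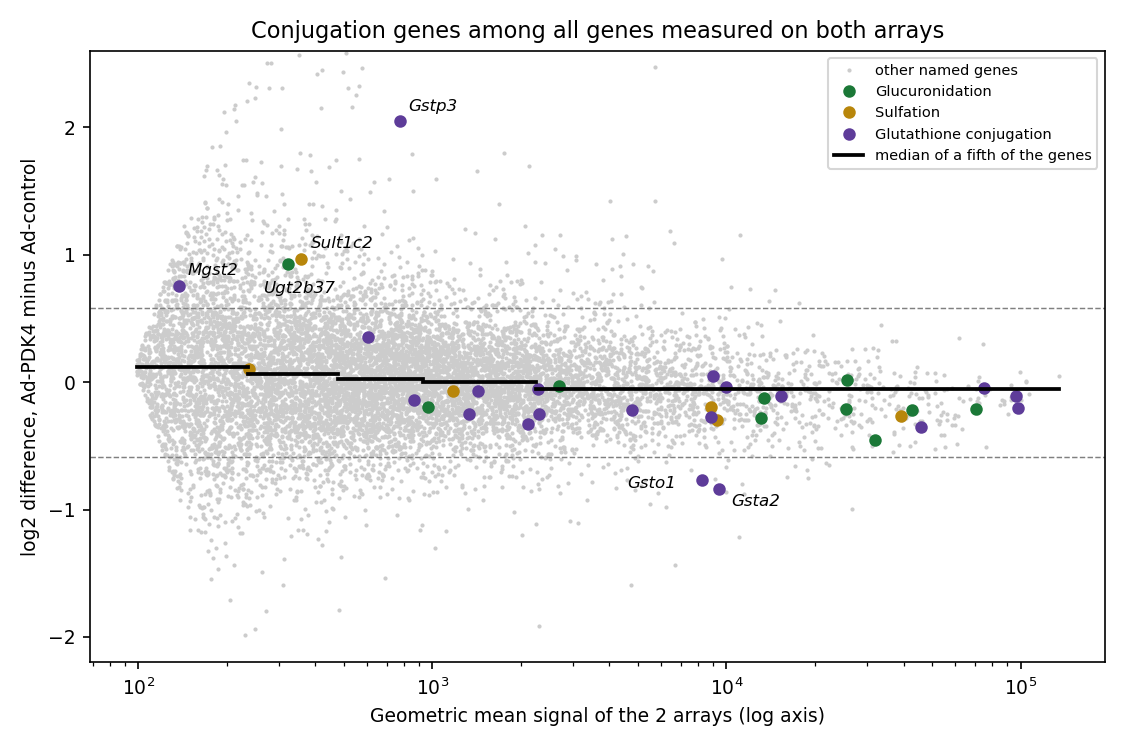
log2 difference (Ad-PDK4 minus Ad-control) against the geometric mean signal of the arrays, for all 10389 genes measured on both (grey, 35 of them beyond the axis) and for the 36 conjugation genes by class; black bars are medians of each of the 5 brightness bins and dashed lines mark 1.5-fold. Conjugation genes crowd the bright end slightly below 0, and the 4 higher ones lie at lower signals.

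Glucuronidation was measured by 7 genes of the 2B group, which conjugate steroids, bile acids and drugs, by Ugt2a3 and by both Ugt3a genes. Ugt2b37 stood apart from the other 9. It gave a signal of 442 in the pool labelled Ad-PDK4 and 235 in the pool labelled Ad-control, 1.90-fold higher and a difference of 0.93 on its only probe set. Its signal lay in the second dimmest bin, of which 13.2% were at least 1.5-fold higher. Raising the floor to the 70th percentile left only a bound for it, at least 0.66.

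Of the other 2B genes, 4 lay close together and the remaining ones apart from them. Ugt2b5 gave 65171 (Ad-PDK4) and 76049 (Ad-control), a difference of -0.21. Ugt2b36 gave 39373 (Ad-PDK4) and 46316 (Ad-control), a difference of -0.22, and Ugt2b35 gave 23597 (Ad-PDK4) and 27546 (Ad-control), a difference of -0.21. Ugt2b38 was close to them at -0.19 (903 in Ad-PDK4, 1042 in Ad-control). All 4 were within 1.5-fold. Ugt2b1 had the lowest difference of the class, -0.45, with signals of 27089 (Ad-PDK4) and 37489 (Ad-control), 1.37-fold lower. Ugt2b34 did not differ by more than its probe sets did, at 25616 (Ad-PDK4) and 25587 (Ad-control), with probe sets at 0.016 and -0.10 on either side of 0.

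Ugt2a3, a 2A enzyme, differed by -0.13, with 12766 (Ad-PDK4) and 14074 (Ad-control). The Ugt3a genes encode enzymes that in humans use sugars other than glucuronic acid, and they are counted in this class by name. Ugt3a2 differed by -0.28, with 11866 (Ad-PDK4) and 14536 (Ad-control). Ugt3a1 was unsettled: its brighter probe set, ending in _s_at and so open to cross-matching, gave -0.029 (2655 in Ad-PDK4, 2737 in Ad-control), and its other one gave -0.78 (1306 in Ad-PDK4, 2270 in Ad-control). The direction was shared, but only the second passed 1.5-fold.

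**Figure D3:**
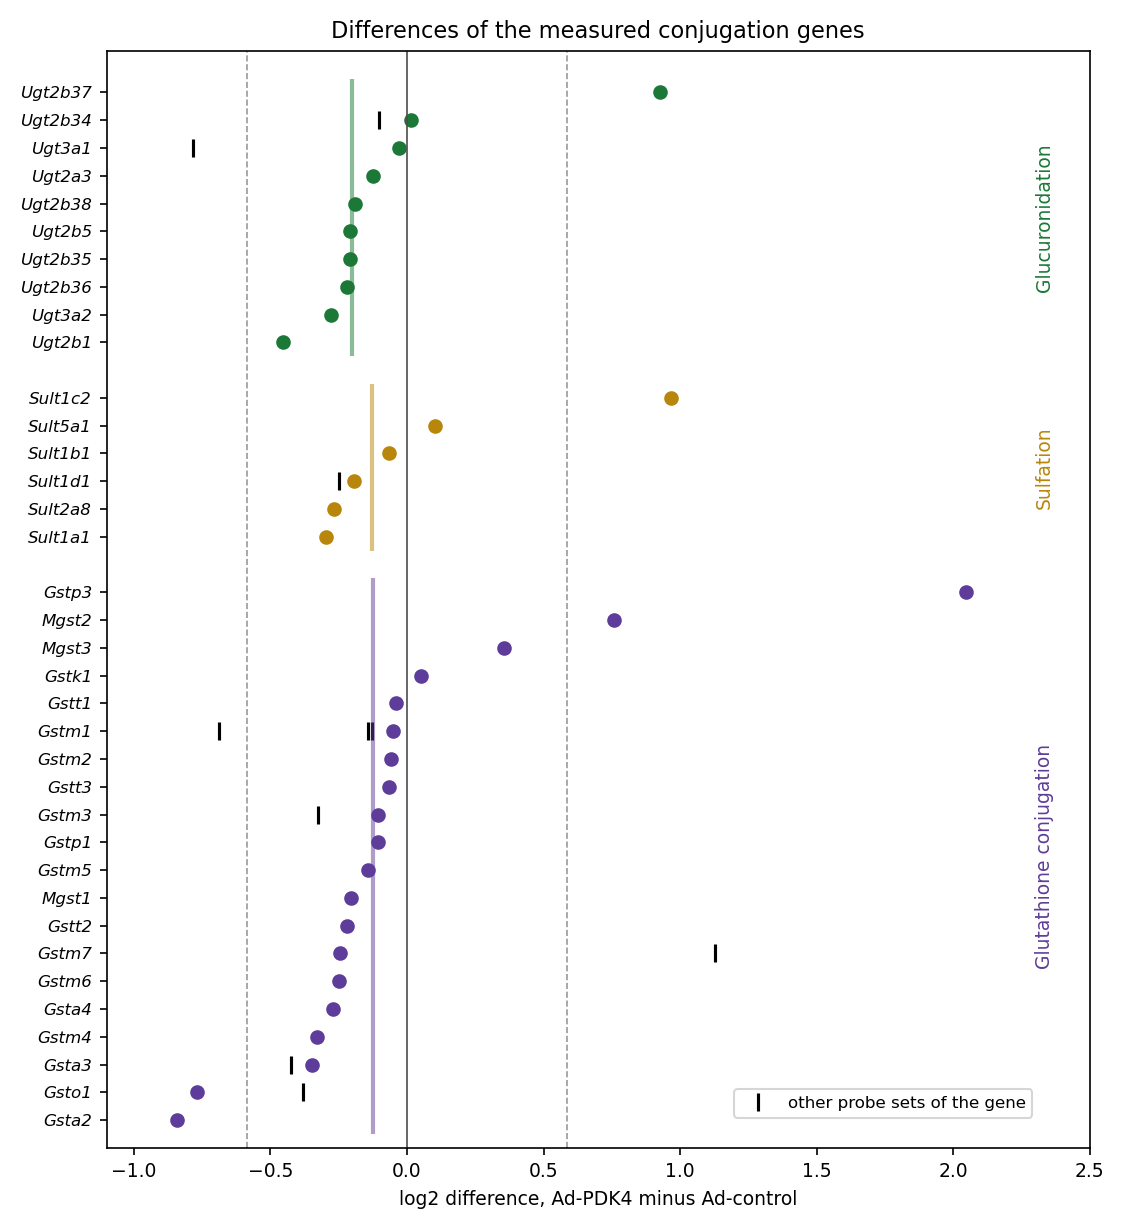
log2 difference (Ad-PDK4 minus Ad-control) of the 36 conjugation genes measured on both arrays, ordered within each class; ticks are the other measured probe sets of a gene, coloured bars class medians and dashed lines 1.5-fold. Ugt2b37, Sult1c2, Gstp3 and Mgst2 lie right of the upper line, Gsta2 and Gsto1 left of the lower one, and the tick of Gstm7 lies far from its point.

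The 7 Ugt2b genes and Ugt2a3 lie close together on chromosome 5, in the same stretch as the Sult1b1, Sult1d1 and Sult1e1 genes, in the RefSeq gene order. Ugt2b37 sits directly between Ugt2b5 (-0.21) and Ugt2a3 (-0.13), so its higher signal was not shared by its neighbours. The 7 Gstm genes, which are likewise neighbours on chromosome 3, ranged only from -0.33 to -0.050. Copies within such clusters are alike in sequence, so a probe set may also read a close relative, and how far that happened here was not tested.

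**Figure D4:**
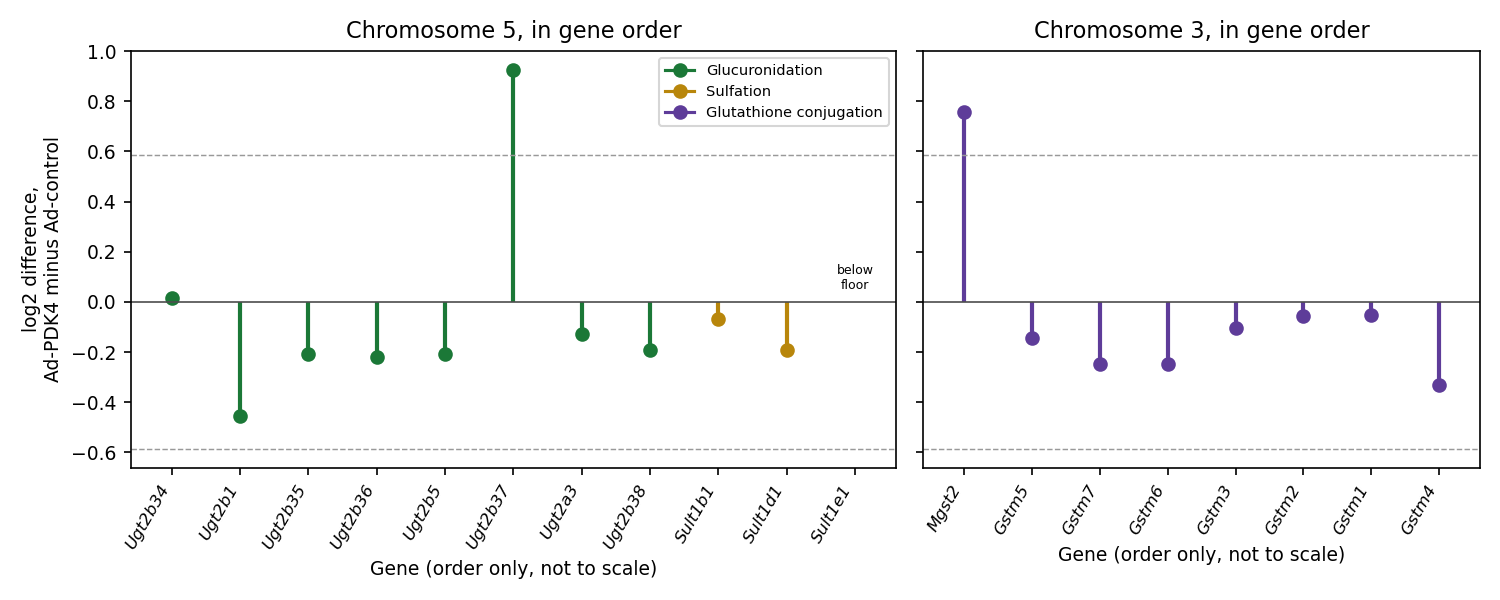
log2 difference (Ad-PDK4 minus Ad-control) of the members on chromosomes 5 and 3 in their order along the chromosome (spacing not to scale; Mgst2 lies far from the Gstm cluster); dashed lines mark 1.5-fold. On chromosome 5 Ugt2b37 lies above a row of genes between -0.45 and 0.016. On chromosome 3 the 7 Gstm genes lie between -0.33 and -0.050, a sign that turns with the poly-A reference, where the median over all genes is 0.56.

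What the glucuronidation genes share beyond their name can be read in their promoters. RefSeq promoter sequences (GRCm38.p6, from 250 bases before to 50 bases after each start site) were found for 40 of the 45 genes, 51 promoters in all; those of Gsta4, Gstt2, Sult2a2, Sult4a1 and Ugt3a2 were not used here. The consensus element of HNF1, a hepatocyte transcription factor known to act on UGT genes, was searched on both strands with up to 3 mismatches. It matched in 9 of 9 UGT promoters, against 8.33% of all 32851 promoters, 21.4% of the 14 sulfotransferase promoters and 7.14% of the 28 glutathione transferase promoters. These promoters are rich in A and T (31.7% to 43.3% G or C), and among the 5992 promoters no richer in G or C than the richest of them the share was 21.6%. The Ugt2 genes are neighbours on chromosome 5, and some hold the same matching letters, so their matches were not independent of each other. A match is a description of the letters and not evidence of binding. The 140 bases before the start site are shown for the 9 genes because the element recurs at a similar place, with the matching letters in capitals.
Ugt2b37: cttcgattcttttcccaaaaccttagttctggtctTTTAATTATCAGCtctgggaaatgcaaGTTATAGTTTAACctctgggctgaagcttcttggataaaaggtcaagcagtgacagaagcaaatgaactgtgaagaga
Ugt2b5: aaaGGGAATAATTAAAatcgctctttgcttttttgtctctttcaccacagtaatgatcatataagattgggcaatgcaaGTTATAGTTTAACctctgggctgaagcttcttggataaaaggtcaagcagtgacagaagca
Ugt2b38: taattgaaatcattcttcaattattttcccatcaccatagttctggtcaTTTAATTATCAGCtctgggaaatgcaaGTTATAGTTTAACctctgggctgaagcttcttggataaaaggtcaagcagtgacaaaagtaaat
Ugt2b36: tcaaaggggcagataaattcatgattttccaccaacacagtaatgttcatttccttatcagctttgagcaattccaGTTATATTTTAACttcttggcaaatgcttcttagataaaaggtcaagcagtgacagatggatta
Ugt2b35: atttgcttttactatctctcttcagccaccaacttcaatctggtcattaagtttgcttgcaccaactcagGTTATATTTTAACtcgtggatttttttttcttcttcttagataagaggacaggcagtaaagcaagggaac
Ugt2b34: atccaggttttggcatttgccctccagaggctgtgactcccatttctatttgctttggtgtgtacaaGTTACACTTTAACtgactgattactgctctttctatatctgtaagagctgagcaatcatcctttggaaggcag
Ugt2b1: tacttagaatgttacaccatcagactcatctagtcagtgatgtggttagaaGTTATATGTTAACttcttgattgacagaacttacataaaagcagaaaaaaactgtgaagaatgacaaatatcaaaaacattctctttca
Ugt2a3: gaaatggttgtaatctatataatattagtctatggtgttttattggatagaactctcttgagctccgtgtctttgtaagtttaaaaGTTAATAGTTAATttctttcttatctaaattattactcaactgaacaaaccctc
Ugt3a1: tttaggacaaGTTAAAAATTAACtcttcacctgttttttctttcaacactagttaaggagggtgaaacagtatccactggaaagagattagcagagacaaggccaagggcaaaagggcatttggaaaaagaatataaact

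These stretches lie on chromosome 5 at chr5:87254789-87254928 (Ugt2b37), chr5:87140341-87140480 (Ugt2b5), chr5:87424204-87424343 (Ugt2b38), chr5:87092556-87092695 (Ugt2b36), chr5:86906938-86907077 (Ugt2b34), chr5:86926504-86926643 (Ugt2b1) and chr5:87337196-87337335 (Ugt2a3), all on the minus strand, at chr5:87000720-87000859 (Ugt2b35, plus strand), and on chromosome 15 at chr15:9279689-9279828 (Ugt3a1, plus strand). The match nearest to the start site began 54 to 89 bases before it in the 8 Ugt2 genes, and 130 bases before it in Ugt3a1, whose match had 1 mismatch. Ugt2b37, the higher gene, carried the same letters there as Ugt2b5 and Ugt2b38, which were not higher. Over 226 aligned bases of their 250-base upstream stretches, Ugt2b37 and Ugt2b5 were 87.6% identical.

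Sulfation was the class least visible on these arrays, with 6 of 13 genes measured. Sult1c2, a cytosolic sulfotransferase of the 1C group, was the 1 gene at least 1.5-fold higher. Its only probe set gave 497 in the pool labelled Ad-PDK4 and 257 in the pool labelled Ad-control, 1.96-fold higher and a difference of 0.97, in a range of brightness where 13.2% of genes were at least 1.5-fold higher. At a floor of the 70th percentile this became a bound of at least 0.83. Its neighbour on chromosome 17, Sult1c1, was under the floor on both arrays (15.3 in Ad-PDK4, 32.9 in Ad-control).

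The other measured sulfotransferases lay within 1.5-fold. Sult1a1, which sulfates phenols, gave 8334 (Ad-PDK4) and 10353 (Ad-control), a difference of -0.30 and the lowest of the class. Sult2a8, which in mice sulfates bile acids, gave 35637 (Ad-PDK4) and 43357 (Ad-control), a difference of -0.27. Sult1d1, a mouse enzyme for catecholamines, differed by -0.19 (8260 in Ad-PDK4, 9539 in Ad-control), and its second probe set by -0.25. None of these passed 1.5-fold, and the probe sets of Sult1d1 gave the same direction. Sult1b1, which acts on phenols and thyroid hormones, differed by -0.066 (1141 in Ad-PDK4, 1207 in Ad-control). Sult5a1 differed by 0.10 (246 in Ad-PDK4, 232 in Ad-control).

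Under the floor on both arrays were 7 sulfotransferase genes, for which no difference can be given. They include Sult1e1, the estrogen sulfotransferase (11.5 in Ad-PDK4, 8.4 in Ad-control), Sult2b1, which sulfates cholesterol (9.3 in Ad-PDK4, 29.3 in Ad-control), and the brain form Sult4a1 (79.7 in Ad-PDK4, 5.4 in Ad-control). Sult2a2 (61.4 in Ad-PDK4, 88.6 in Ad-control) and Sult3a1 (40.7 in Ad-PDK4, 2.2 in Ad-control) are known mainly from female mouse liver, and the labels do not give the sex of these mice. Sult6b1 gave 6.6 (Ad-PDK4) and 1.2 (Ad-control). Signals this low have no order on these arrays. A floor at the 30th percentile instead gave 2 sulfotransferases at least 1.5-fold higher, Sult1c2 and Sult4a1, the second only as a bound of at least 1.16. The other Sult4a1 probe set gave 4.7 in Ad-PDK4 and 3 in Ad-control, so this call is not settled.

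Glutathione conjugation held both the highest and the lowest of all 36 measured members. Gstp3, a pi-class transferase gene, gave 1571 in the pool labelled Ad-PDK4 and 384 in the pool labelled Ad-control, 4.13-fold higher. Its difference of 2.05, on 1 probe set, was far above the probe set SD, in a brightness bin of which 7.94% were at least 1.5-fold higher. At least 2-fold higher it was the only member, against 2.7% of all genes, and 0 members were 2-fold lower, against 0.732%. Gstp1, the main pi-class enzyme of liver, gave 92139 (Ad-PDK4) and 100183 (Ad-control), a difference of -0.11. The pi-class genes thus differed from each other on these arrays by far more than the probe set SD.

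Gstp3 lies beside Gstp2 and Gstp1 on chromosome 19, all on the minus strand. The 250 bases before their start sites are shown because neighbouring genes of the same class gave different values; Gstp2 has no probe set of its own here. They lie at chr19:4059448-4059697 (Gstp3), chr19:4037913-4038162 (Gstp1) and chr19:4042222-4042471 (Gstp2). Capitals mark the core of the xenobiotic response element, GCGTG, searched on both strands.
Gstp3: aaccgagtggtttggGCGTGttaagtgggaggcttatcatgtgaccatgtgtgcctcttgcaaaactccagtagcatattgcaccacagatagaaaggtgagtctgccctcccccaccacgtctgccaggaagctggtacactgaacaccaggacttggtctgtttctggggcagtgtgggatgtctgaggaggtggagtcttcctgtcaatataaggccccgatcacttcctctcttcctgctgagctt
Gstp1: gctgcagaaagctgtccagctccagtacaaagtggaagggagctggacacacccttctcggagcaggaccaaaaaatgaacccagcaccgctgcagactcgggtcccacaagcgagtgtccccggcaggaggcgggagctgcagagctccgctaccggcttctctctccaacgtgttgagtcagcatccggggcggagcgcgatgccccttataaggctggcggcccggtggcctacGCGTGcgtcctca
Gstp2: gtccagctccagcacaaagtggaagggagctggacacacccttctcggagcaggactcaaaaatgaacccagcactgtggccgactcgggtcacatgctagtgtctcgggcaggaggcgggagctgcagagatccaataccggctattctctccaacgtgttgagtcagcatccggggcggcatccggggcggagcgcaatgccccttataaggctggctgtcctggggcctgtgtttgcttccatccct

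Gstp1 and Gstp2 were 88.5% identical over 235 aligned bases. The GCGTG core occurred in Gstp3 at 235 bases and in Gstp1 at 13 bases before the start site, and not in these letters of Gstp2. It was present in 11 of the 51 member promoters (21.6%), against 32.4% of all promoters. The core of the antioxidant response element, TGACNNNGC, the site of NRF2, was present in 4 of 51 (7.84%), against 12.4% of all promoters. Those were promoters of Gsta3, Gstm5, Gstm7 and Mgst1, all within 1.5-fold. None (0 of 6) of the promoters of the 6 genes past 1.5-fold held it within this window. With shares this low, 6 promoters are too few to read anything from that count.

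Alpha-class transferases, which reduce lipid peroxides and detoxify their aldehydes, all had differences below 0 relative to the median probe set. With the poly-A reference only Gsta2 did, but that reference puts the median over all genes at 0.56. Gsta2, an inducible member, gave 7002 in the pool labelled Ad-PDK4 and 12668 in the pool labelled Ad-control, 1.79-fold lower and a difference of -0.84. It was among the 2.84% of genes in the brightest bin that were at least 1.5-fold lower, on 1 probe set, but centred on the poly-A spike-in controls its difference was only -0.30, and on the hybridization controls -0.58, just short of 1.5-fold. Gsta3, which in mice detoxifies aflatoxin epoxide, gave 40536 (Ad-PDK4) and 52144 (Ad-control), and its probe sets gave -0.35 and -0.43. Gsta4, which acts on lipid aldehydes, gave 8008 (Ad-PDK4) and 9761 (Ad-control), a difference of -0.27. Both genes were within 1.5-fold, and both were above 0 with the spike-in reference (0.19 for Gsta3, 0.27 for Gsta4).

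Omega-class Gsto1, a thioltransferase that also reduces dehydroascorbate, was the other lower gene. Its brighter probe set gave 6297 (Ad-PDK4) and 10831 (Ad-control), 1.70-fold lower and a difference of -0.77. That probe set ends in _x_at, which marks probes open to cross-matching, and the other one gave -0.38 (5574 in Ad-PDK4, 7329 in Ad-control), so the call was lost when such probe sets were left out. Its neighbour Gsto2 was under the floor on both arrays (20.1 in Ad-PDK4, 49.8 in Ad-control).

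Mu-class genes stayed within 1.5-fold by their brightest probe sets, 7 of 7, with a median of -0.14. All 7 were above 0 with the poly-A reference, which puts the median over all genes at 0.56. Gstm1, a major hepatic transferase, gave 73396 (Ad-PDK4) and 76763 (Ad-control), a difference of -0.050. Its other 3 probe sets gave -0.13, -0.14 and -0.69, of which -0.69 came from an _x_at probe set (16390 in Ad-PDK4, 26678 in Ad-control). Gstm2 differed by -0.058 (2230 in Ad-PDK4, 2345 in Ad-control), and Gstm3 by -0.11 (14647 in Ad-PDK4, 15920 in Ad-control) with a second probe set at -0.33. Gstm4 was the lowest, at -0.33 (1879 in Ad-PDK4, 2386 in Ad-control), followed by Gstm6 at -0.25 (2098 in Ad-PDK4, 2519 in Ad-control). Gstm5 differed by -0.14 (822 in Ad-PDK4, 917 in Ad-control). Every brightest probe set of the mu class was thus within 1.5-fold, but the _x_at probe set of Gstm1 was past it.

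Gstm7 had no settled direction. Its brighter probe set gave 1219 (Ad-PDK4) and 1462 (Ad-control), a difference of -0.25, and its dimmer one gave 238 (Ad-PDK4) and 110.0 (Ad-control), a difference of 1.13. As the median of both it was at 0.44. Probe sets on either side of 0 were found in 2 of the 8 members with several measured probe sets, Gstm7 and Ugt2b34, against 50.6% of the 4326 such genes.

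Theta-class and kappa-class genes differed little. Gstt1, which conjugates small halogenated molecules, gave 9796 (Ad-PDK4) and 10169 (Ad-control), a difference of -0.039, Gstt3 differed by -0.067 (1386 in Ad-PDK4, 1466 in Ad-control) and Gstt2 by -0.22 (4411 in Ad-PDK4, 5192 in Ad-control). Gstk1, a transferase of mitochondria and peroxisomes, differed by 0.051 (9144 in Ad-PDK4, 8918 in Ad-control). Gstt4 was under the floor on both arrays (7.1 in Ad-PDK4, 5.4 in Ad-control).

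The microsomal transferases, a separate family of membrane proteins, split. Mgst1, which protects membranes against peroxidation, gave 90607 (Ad-PDK4) and 105584 (Ad-control), a difference of -0.21. Mgst2 and Mgst3, which can make cysteinyl leukotrienes, had differences above 0. Mgst2 gave 178 (Ad-PDK4) and 107 (Ad-control), 1.69-fold higher and a difference of 0.76. Its control signal lay just above the floor, in the dimmest bin, of which 17.5% were at least 1.5-fold higher. At a floor of the 70th percentile it was not measured on either array. Mgst3 gave 682 (Ad-PDK4) and 539 (Ad-control), a difference of 0.36 and within 1.5-fold.

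Genes listed for the supply and turnover of the 3 donors were mostly within 1.5-fold, as were 8892 of all 10389 genes measured on both arrays. These lists also hold genes that do not make a donor. For UDP-glucuronic acid, 7 of 7 measured genes were within it, with a median of -0.058. Ugdh, the dehydrogenase that makes the donor, gave 10835 (Ad-PDK4) and 12471 (Ad-control), a difference of -0.19. The transporter Slc35d1 gave -0.19 on its brighter probe set and 0.53 on the other one, so its direction is not settled. The phosphoglucomutase Pgm2 was the highest at 0.39.

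For sulfate, 7 of 9 measured genes were within 1.5-fold, with a median of -0.12. Higher was 1 and lower was 1, against 9.21% and 5.2% of all genes. The synthases of the sulfate donor gave -0.14 (Papss1) and -0.12 (Papss2). Suox, sulfite oxidase of mitochondria, was 1.79-fold lower, with 1721 (Ad-PDK4) and 3105 (Ad-control), a difference of -0.84. The sulfate transporter Slc26a1 was 1.52-fold higher by its brighter probe set (0.61) but gave -1.69 on the other one, so its direction is not settled.

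For glutathione, the median over 14 measured genes was -0.018, 13 of them within 1.5-fold and 1 lower, against 5.2% of all genes lower. Cth, the cystathionine lyase that supplies cysteine, gave 17641 (Ad-PDK4) and 27996 (Ad-control), a difference of -0.65. Of the ligase that limits glutathione synthesis, the catalytic subunit Gclc differed by -0.014 and the modifier subunit Gclm by -0.34, with a second Gclm probe set at -0.67, past 1.5-fold lower. Glutathione synthase, Gss, was the highest at 0.35. Glutathione reductase, Gsr, differed by -0.48 on its brighter probe set and -0.034 on the other one. Export pumps were within 1.5-fold in 6 of 6 cases, from Abcb1a (-0.51) to Abcc4 (0.34), with Abcc2, the canalicular pump for conjugates, at -0.31. The second probe set of Abcb1a gave -0.83, past 1.5-fold lower.

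Among 16 measured sensors and regulators, 13 were within 1.5-fold, with a median of 0.044. Higher were 2 and lower was 1, against 9.21% and 5.2% of all genes. Nfe2l2, the gene of NRF2, gave 5472 (Ad-PDK4) and 3681 (Ad-control), a difference of 0.59, barely past the 1.5-fold threshold. Its small Maf partner Mafk was 1.71-fold higher (366 in Ad-PDK4, 216 in Ad-control). Bach1, a repressor that competes with NRF2, was 2.13-fold lower, with 1995 (Ad-PDK4) and 4295 (Ad-control), and its second probe set gave -0.68. The sensors Nr1i3 (CAR), Nr1i2 (PXR) and Ahr differed by -0.21, -0.038 and 0.12, and Hnf4a by -0.18. A second probe set of Nr1i2 gave -0.82, past 1.5-fold lower, so its size is not settled, and the 4 probe sets of Hnf4a ran from -0.55 to -0.067.

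**Figure D5:**
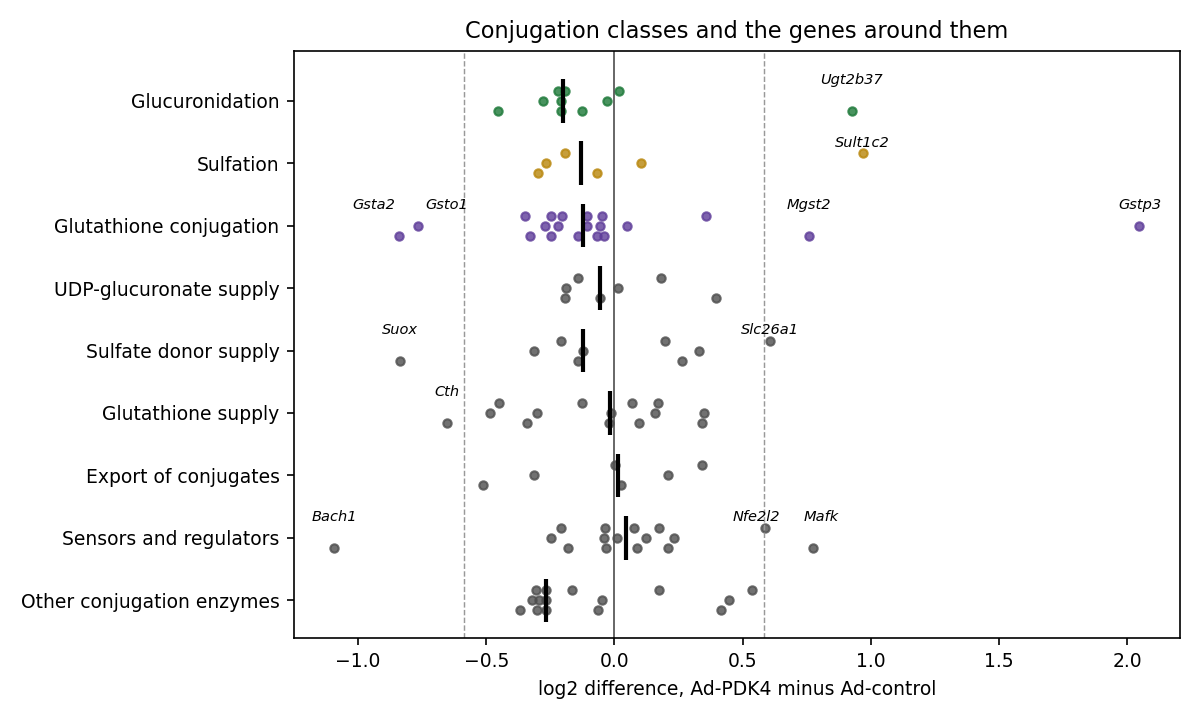
log2 difference (Ad-PDK4 minus Ad-control) of each gene measured on both arrays, for the 3 conjugation classes and for the lists of donor supply and turnover, export, regulators and other conjugation enzymes. Points are genes (vertical offsets are for legibility), black bars medians and dashed lines 1.5-fold. Medians of all these groups lie between -0.27 and 0.044, and Gstp3 is the farthest point from 0.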

How the data were processed

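Total RNA of each liver pool, 10 ug per pool per the labels, was labelled as biotinylated cRNA by the Affymetrix procedure and read on 1 array per pool. The deposited values are linear signal intensity values, 1 per probe set; the software, background correction and summary method were not given in the labels. Their mean without the highest and lowest 2% was 499.5 for Ad-PDK4 and 499.2 for Ad-control.

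Of 45101 probe sets, 64 controls were set aside. Gene names came from the platform annotation (34945 probe sets with 1 symbol, 932 with several, 9160 with none), and all 45 members were found in RefSeq (GRCm38.p6) under the same symbol. Of their 58 probe sets, 7 end in _x_at or _s_at and can match several transcripts. Signals were put on the log2 scale, with a floor at the 50th percentile of each array, and centred on the median of 20151 probe sets above the floor on both (a shift of -0.015). Each gene took its probe set with the highest mean. A gene under the floor on 1 array would have only a bound. Differences of at least 1.5-fold were counted beside the same count over all genes.

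The members and lists were chosen with earlier results of these data known. Every member is accounted for. Cell type marker lists are given by counts, with names only for some members. Of cholangiocyte, T and B cell and intestine epithelium markers, 2, 3 and 1 were measured, and 0 were past 1.5-fold. Genes of the remaining lists were named by rule when at least 1.5-fold apart or the highest or lowest of their list. The other list genes named (Ugdh, Papss1, Papss2, Gclc, Gclm, Gsr, Abcc2, Nr1i3, Nr1i2, Ahr and Hnf4a) fall outside this rule and were chosen for their role after their values were seen. Identity between member proteins was not computed. Calculations were tested on simulated data. No p-value was computed, since pools were not replicated. Alternatives changed the floor, the choice of probe set, the centring, the normalization and the fold threshold. The number of arrays limits the precision. Python 3.11.15, pandas 2.3.3 and statsmodels 0.14.6 were used.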

Additional observations from a re-analysis of the deposited data

How the results depend on the processing

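Of the 6 genes past 1.5-fold, all kept their direction under each alternative that gave a value. Gstp3 (2.03 to 2.59), Sult1c2 and Ugt2b37 also kept their call under all 9, while Gsta2 lost it with the spike-in reference (-0.30) and narrowly with the hybridization reference (-0.58) and Gsto1 with these, with the median over probe sets and without probe sets ending in _x_at or _s_at. Mgst2 kept its call under the 8 alternatives where it was measured. Counts of higher members moved to 2 for sulfation when the floor was the 30th percentile (Sult4a1, by a bound) and to 1 for glutathione conjugation at the 70th. Counts of lower members moved to 1 for glutathione conjugation with the median over probe sets (1 for all members) and without _x_at and _s_at probe sets, where glucuronidation also had 1, Ugt3a1. At 2-fold, 1 glutathione transferase was higher (1 of all members), 0 of the other classes were higher, and 0 were lower.

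The median over all members was -0.073 with loess centring and -0.067 after quantile normalization, where glucuronidation was also at -0.067. Members below 0 went from 28 of 36 to 25 with loess and 24 with quantile normalization. For glutathione conjugation they went from 16 of 20 to 13 and 12. Gstm1, Gstp1 and Gstt1 lay above 0 with both. Both spike-in references were chosen after seeing the data. With poly-A spike-ins as reference, the medians were 0.34 for glucuronidation, 0.41 for sulfation, 0.42 for glutathione conjugation and 0.37 for all members; 0, 0, 2 and 2 members were below 0; 2 sulfotransferases, 4 glutathione transferases and 7 members in all were at least 1.5-fold higher, and 0 glutathione transferases and 0 members were lower. With hybridization controls the medians were 0.056, 0.13, 0.13 and 0.088, with 2, 2, 5 and 9 below 0 and 0 glutathione transferases or members at least 1.5-fold lower. These references shift every gene by the same amount, and which one is right was not tested. The background moved with them: of all 10389 genes, 4856 passed 1.5-fold upward and 41 downward under the poly-A reference. Under the hybridization reference 2202 genes passed it upward and 169 downward, and 5 members upward. The upward counts of members are thus no sign of a rise particular to conjugation genes. No replicate could be left out. No paired analysis was possible because each group has 1 array.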

Other observations

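Other conjugation and hydrolysis enzymes lay within 1.5-fold in 15 of 15 measured cases, with a median of -0.27, and 11 of 15 were below 0 relative to the median probe set. Their median lies above 0 with the poly-A reference, where the median over all genes is 0.56. Below 0 relative to the median probe set were 48.4% of all genes measured on both arrays, and 59.8% of the brightest bin. Inmt, an amine methyltransferase, had the lowest difference, -0.37, with 55323 in the pool labelled Ad-PDK4 and 72158 in the pool labelled Ad-control. The thiopurine methyltransferase gene Tpmt was the highest at 0.54 (3334 in Ad-PDK4, 2319 in Ad-control), with probe sets from 0.22 to 0.80.

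Companion targets of the same sensors, not all of them phase I enzymes, had 3 of 17 measured members at least 1.5-fold higher and 3 lower. Over all 12121 named genes measured, bounds included, 1335 were higher and 676 lower. The higher ones of the list were Cbr3 (692 in Ad-PDK4 and 349 in Ad-control), Cyp2b9 (0.94) and Cyp2c55 (0.70). Its lower ones were Alas1 (-0.99, with a second probe set at -1.75), Osgin1 (-0.86) and Cyp4a14 (-0.75). The list median was 0.22 over the 15 measured on both arrays. Markers of pericentral hepatocytes, where several glutathione transferases are known to be enriched, were below 0 relative to the median probe set in 8 of 8 cases, with a median of -0.31. Periportal markers were below 0 in 5 of 6, with a median of -0.39. Both medians lie above 0 with the poly-A reference, where the median over all genes is 0.56. Of all genes measured on both arrays, 48.4% were below 0 relative to the median probe set, and 59.8% of the brightest bin. At least 1.5-fold lower were 2 of 8 pericentral markers, Axin2 (-0.89) and Slc1a2 (-0.76, with probe sets up to 0.43). The same held for 2 of 6 periportal markers, Hal (-0.87) and Cdh1 (-0.61), against 5.2% of all genes. Of 5 endothelial markers Pecam1 gave 0.71 and Cdh5 -0.68, and the other 3 were within 1.5-fold. Of 5 stellate cell markers Des gave 0.72 and the other 4 were within 1.5-fold. The stellate list had a median of -0.11, with 3 of 5 below 0. Genes known as male-biased in mouse liver had a median of -0.10 (11 measured, 2 at least 1.5-fold higher, 0 lower). They ran from Cyp4a12a (-0.45) to Cyp7b1 (0.73) and Cyp2u1 (1.07). Among all genes measured on both arrays, 9.21% were at least 1.5-fold higher and 5.2% lower. Female-biased genes had a median of -0.083 over the 7 measured on both arrays. With bounds counted, 3 of 10 were higher and 2 lower, against 1335 and 676 of 12121 named genes. Of the female-biased genes, Cyp17a1 was the highest (1.57) and Slco1a4 the lowest (-0.80). Hao2 (at least 1.63-fold higher) and Cux2 (at least 1.55-fold lower) had bounds only.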
